A study of Mus musculus with 2 samples.

Results

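The genes described here encode 8 proteins of the complex that ties the muscle fibre's skeleton to the matrix around it: dystrophin (Dmd), its relative utrophin (Utrn), dystroglycan (Dag1), the sarcoglycans alpha, beta and delta (Sgca, Sgcb, Sgcd), sarcospan (Sspn) and alpha-dystrobrevin (Dtna). They were chosen by name, not by any measured value, though with earlier results of these data known. They make up 8 of the 55536 genes in the tables. Each of the 8 reached 1 TPM, the tables' length-corrected share of all transcripts, in both libraries. The libraries were made from total RNA of gastrocnemius, the large calf muscle, with ribosomal RNA reduced and ERCC spike-in RNAs added to a starting amount of 300 ng. They came from female B6CASTF1/J mice, a first-generation cross of the B6 and CAST strains, aged 2 months. There was 1 group with 2 libraries, labelled biological replicates 1 and 2 and called animal 1 and animal 2 here, and no treatment, genotype or time was contrasted. A single donor record stands in the labels of both libraries, and the labels leave unsaid whether it names a strain or a mouse. Every spread below may therefore be one between samples of a single mouse and not between mice.

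Dystrophin binds actin filaments with its amino end and beta-dystroglycan in the membrane with its carboxyl end. Alpha-dystroglycan, cut from the same Dag1 precursor, holds laminin outside the fibre through sugar chains, while the sarcoglycans and sarcospan form a membrane subcomplex that steadies this bond. Syntrophins and dystrobrevin attach to the carboxyl end of dystrophin and carry signalling proteins such as neuronal nitric oxide synthase. Loss of dystrophin causes Duchenne muscular dystrophy and loss of a sarcoglycan causes a limb-girdle dystrophy. Utrophin takes the place of dystrophin in other tissues and, in mature fibres, is concentrated at nerve and tendon junctions.

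Dmd and Utrn each have several annotated first exons, and these separate the forms that are compared below, so their sequences are shown first. Full-length Dmd is carried by the transcript Dmd-203, and the short carboxyl-terminal form by Dmd-201 and Dmd-202, which begin 2100 kb further along the gene (GENCODE M21 annotation, mm10). The coding part of each first exon lies at chrX:82949117-82949147 for Dmd-203 and at chrX:85048440-85048459 for the short form, plus strand. For Utrn it lies on the minus strand at chr10:12861568-12861646 for Utrn-201, at chr10:12813446-12813539 for Utrn-202 and at chr10:12826769-12826838 for Utrn-207. Capitals mark the start codon:
Dmd-203: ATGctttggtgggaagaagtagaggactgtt
Dmd-201 and Dmd-202: ATGagggaacacctcaaagg
Utrn-201 and Utrn-205: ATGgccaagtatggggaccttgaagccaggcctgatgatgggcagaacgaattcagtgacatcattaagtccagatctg
Utrn-202: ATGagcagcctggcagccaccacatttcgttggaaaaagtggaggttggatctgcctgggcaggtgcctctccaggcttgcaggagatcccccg
Utrn-207: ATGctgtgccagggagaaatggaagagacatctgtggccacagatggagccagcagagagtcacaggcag
These coding parts hold 31 and 20 bases in Dmd, and 79, 94 and 70 in Utrn. Whole coding sequences reach 11034 nt in Dmd and 10290 nt in Utrn. The untranslated bases of the first exons are not shown. Other bases also separate the forms, and Dmd-203 has 5737 that no other Dmd transcript holds.

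The 250 bases before 2 RefSeq starts of Dmd are shown because the coding transcript that begins near the one was well expressed and those that begin near the other were at or near 0 in these libraries. The first is the start of Dmd-205, close to that of Dmd-203, and the second is the start of the retained-intron transcript Dmd-206, 118 nt before that of Dmd-201 and Dmd-202. The windows come from the RefSeq promoter table (GRCm38.p6), which held windows for 7 of the 8 genes and none for Dtna, and lie at chrX:82948620-82948869 and chrX:85048045-85048294, plus strand. Capitals mark matches on either strand to the E-box (CANNTG), the CArG box, the GC box (GGGCGG), the MEF2 site, the TATA box (written here as TATAAA) and the muscle M-CAT motif (written as CATTCC):
Dmd muscle start: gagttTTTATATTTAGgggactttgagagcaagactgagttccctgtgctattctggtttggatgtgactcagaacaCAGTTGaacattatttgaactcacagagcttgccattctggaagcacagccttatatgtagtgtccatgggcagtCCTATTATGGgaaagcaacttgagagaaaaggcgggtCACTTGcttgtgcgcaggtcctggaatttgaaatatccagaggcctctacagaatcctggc
Dmd downstream start: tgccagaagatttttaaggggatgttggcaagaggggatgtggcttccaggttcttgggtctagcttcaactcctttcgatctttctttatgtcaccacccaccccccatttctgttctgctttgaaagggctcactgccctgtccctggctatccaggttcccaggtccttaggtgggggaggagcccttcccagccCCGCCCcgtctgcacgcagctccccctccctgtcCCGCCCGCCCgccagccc
The muscle window held 2 E-boxes, 1 CArG box that ended 88 bases before the RefSeq start, and 1 MEF2 site that overlapped its 1 TATA box. Both lay at the far end of the window, where the MEF2 site ended 234 bases and the TATA box 239 bases before that start. The downstream window held 3 GC boxes, of which the nearest ended 8 bases before the start of Dmd-206, and none of the other motifs. Among all 32851 windows of the same length, 66.2% held an E-box, 32.7% a GC box, 12.4% a TATA box, 12.6% an M-CAT motif, 1.47% a CArG box and 2.92% a MEF2 site. These are matches of letters and do not show binding. Bases G and C made up 45.2% of the muscle window and 60.0% of the downstream window, with a median of 52.4% over all windows.

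The gene tables held 45014831 expected counts in animal 1 and 47771308 in animal 2, and 11889 and 11425 genes reached 1 TPM. Markers of fast fibres were abundant in both, with a summed level of 52466 and 50697 TPM over 7 of 7 genes, while none of 5 neuron genes reached 1 TPM. The animals differed in other markers. All 7 slow fibre genes were 2-fold or more higher in animal 2 (summed level 854 and 3586 TPM). Where the count averaged at least 100, 9 of 9 Schwann cell genes (summed level of the 12 listed, 264 and 36.6 TPM), 8 of 8 adipocyte genes (634 and 42.7 TPM) and 4 of 8 genes of pericytes and smooth muscle (231 and 130 TPM) were 2-fold or more higher in animal 1. Over all 10872 genes with such a count, 0.791% were 2-fold higher in animal 2 and 2.18% in animal 1. In whole muscle, fewer cells of a type and less RNA per cell cannot be told apart.

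All 8 genes were expressed above the middle of the protein-coding genes of the nucleus, and alpha-sarcoglycan and dystroglycan led. Sgca measured 90.7 TPM in the first animal and 90.5 TPM in the second, and Dag1 77.8 and 82.2 TPM. Dmd was at 39.6 and 39.9 TPM. Dtna followed at 35.7 and 38.0 TPM, Sgcb at 31.7 and 32.1 TPM and Sgcd at 26.8 and 28.1 TPM. The lowest of the group were Sspn, at 18.1 and 20.0 TPM, and Utrn, at 14.8 and 10.1 TPM. The animals lay close together for every gene except Utrn, whose 2 values differed more than those of any other of the 8 relative to its level.

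Among the 10611 nuclear protein-coding genes that averaged at least 1 TPM, with a median of 7.30 TPM, Sgca stood at the 95.2 percentile, Dmd at 88.6 and Utrn at 65.7. The median of the 8 genes was 34.4 TPM. TPM is a level per length, so it can be compared between genes. The neighbours in this order were set apart where the mean log2 ratio of TPM within an animal exceeded 2 SD over the animals with 1 sign in both, which held for 5 of 7 neighbouring pairs. Dmd over Dtna, at a log2 ratio of 0.11 ± 0.05 (SD, n = 2), and Sspn over Utrn, at 0.64 ± 0.49, did not pass.

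**Figure D1:**
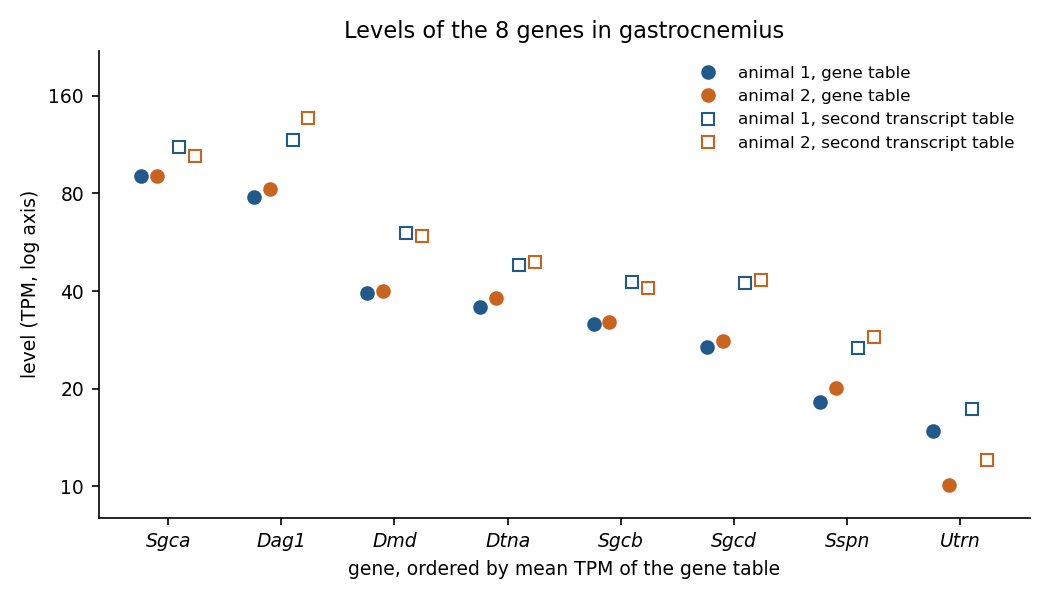
Levels of the 8 genes in TPM on a log axis, per animal, from the gene table (filled circles) and from sums over the second transcript table (open squares). Sgca and Dag1 stand highest in both tables, and Utrn, the lowest, is the gene whose circles lie furthest apart.

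The second transcript table, which the authors made from the reads and not from an alignment to transcripts, gave higher TPM for all 8 genes, as it did for most genes. The ratio of its TPM to that of the gene table had a median of 1.48 over the protein-coding genes, with 1.25 and 1.95 at the 10th and 90th percentiles. Dag1 was raised by 1.498 and 1.656 times, Dmd by 1.53 and 1.48 times, Sgca by 1.23 and 1.15 times and Utrn by 1.17 and 1.19 times. In that table Dag1, at 116 and 136 TPM, stood above Sgca, at 111 and 104 TPM, although the log2 ratio of -0.23 ± 0.23 for Sgca over Dag1 (SD, n = 2) did not exceed the spread. Sgcb and Sgcd, 0.22 ± 0.03 apart in the gene table, were at -0.03 ± 0.06 in the second.

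Dystrophin was read almost wholly from the full-length transcript where reads are counted, and the short carboxyl-terminal form was estimated at or near 0. Dmd spans 2257 kb of the X chromosome (82948870 to 85206141, plus strand) and had 14 annotated transcripts, of which 3 are protein-coding. Dmd-203, with 79 exons and a coding sequence for 3678 residues, was at 24.3 TPM in both animals. It held 13549 of 14792 expected counts in animal 1 and 14426 of 15913 in animal 2, which is 91.1 ± 0.67% of the reads (SD, n = 2) but 61.2 ± 0.33% of the TPM. The second table placed it at 34.5 and 34.4 TPM. The level of the full-length transcript thus differed little between the animals in either table.

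The short form encodes 617 residues in Dmd-201 and 604 in Dmd-202, and 16 of the 18 exons of Dmd-201 are also exons of Dmd-203. Dmd-201 had 0 counts in both animals and both tables. Neither Dmd-201 nor Dmd-202 has a base that no other Dmd transcript holds, so their counts are an allocation of shared reads. A count of 3 on Dmd-201 would equal 0.0184 and 0.0173 TPM in the respective animals, which leaves out the error of that allocation. The authors' own upper credibility bound, whose level is not stated, was wider, at 0.0893 and 0.0786 TPM. Dmd-202 had 10.6 expected counts in animal 1 (0.16 TPM, bounds 0.0248 and 0.471) and 0 in animal 2 (upper bound 0.190 TPM). The second table gave it 0.241 and 0 TPM. Retained-intron transcripts that begin near the downstream start were also low: Dmd-206 was at 0.15 and 0.18 TPM, Dmd-207 at 0.24 and 0.38 TPM and Dmd-213 at 0.63 and 0.38 TPM, named after their values were seen. The short form is known from brain, retina and many cells outside muscle.

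The rest of the Dmd level sat on 11 short transcripts with no coding sequence, which had 38.6 ± 0.62% of the TPM but 8.84 ± 0.72% of the reads. Dmd-212, a retained-intron transcript of 3055 nt, was the largest of them in the first transcript table, at 7.20 and 9.13 TPM. Its credibility bounds were 6.19 to 8.06 TPM in animal 1 and 8.13 to 9.96 TPM in animal 2. Of its 17 exons, 15 are identical to exons of Dmd-203, and it begins 94.5 kb after Dmd-203. The second table put it at 0.757 and 1.96 TPM and put the processed transcript Dmd-210, an incomplete model of 868 nt with 190 bases of its own, at 19.5 and 17.9 TPM. In the first transcript table Dmd-210 was at 3.70 and 3.05 TPM. The tables therefore differed on which fragment was present, and neither shows which bases the reads covered. Other first exons of Dmd, known from brain and Purkinje cells, have no coding transcript in this annotation and were not measured.

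**Figure D2:**
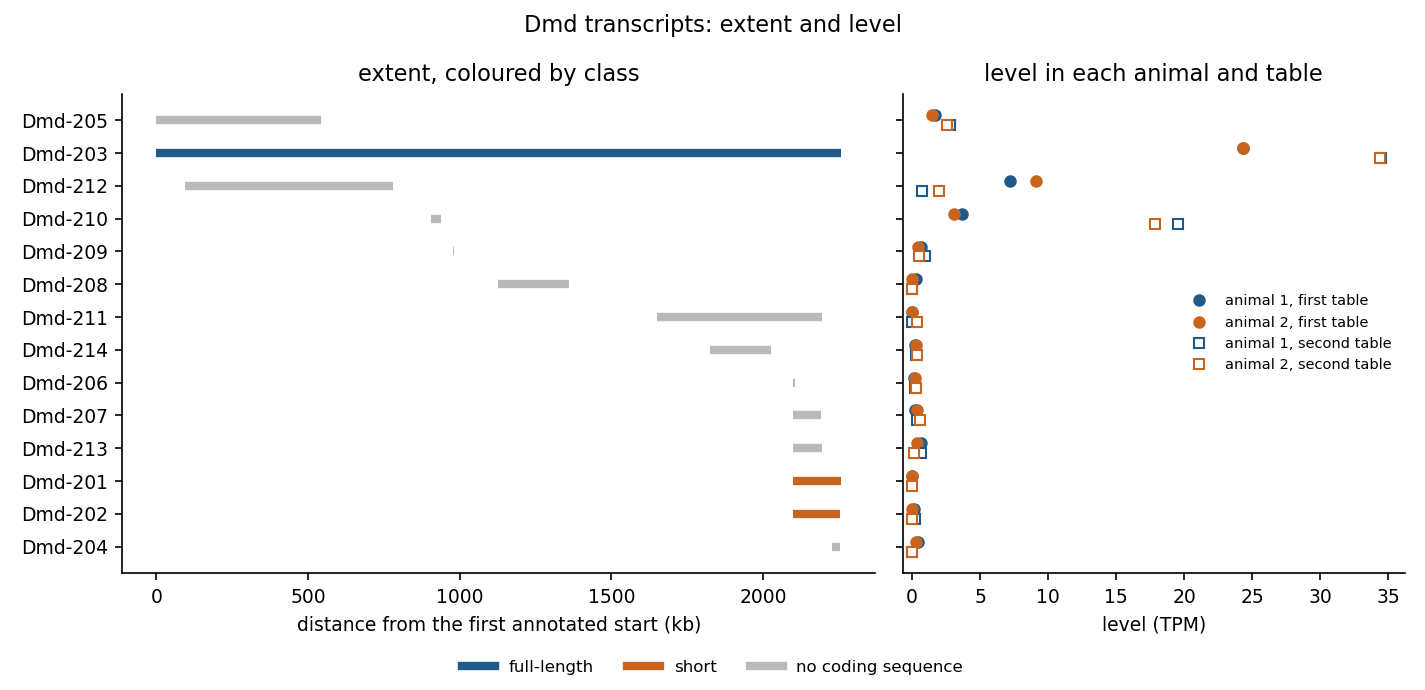
Left, the extent of each annotated Dmd transcript as distance in kb from the first annotated start, coloured by class; right, its TPM per animal in the first (filled circles) and second (open squares) transcript table. Dmd-203 reaches 24.3 TPM or more in every case, Dmd-201 and Dmd-202 stay below 0.3 TPM, and Dmd-210 and Dmd-212 trade places between the tables.

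Utrophin was 2.67-fold lower than dystrophin in animal 1 and 3.92-fold lower in animal 2, per TPM. The log2 ratio of Dmd over Utrn was 1.69 ± 0.39 (SD, n = 2), which exceeds the spread, and 2.04 ± 0.35 in the second table. Utrn lies on chromosome 10 (12382188 to 12869365, minus strand) and had 13 annotated transcripts, 4 of them incomplete coding models. Utrn-201 was at 7.08 and 4.19 TPM. Utrn-205, which encodes the same 3430 residues but begins 7.63 kb upstream, was at 2.07 and 1.75 TPM. The second table gave 8.55 and 4.49 TPM for Utrn-201 and 4.86 and 4.18 TPM for Utrn-205. By these estimates Utrn-201 differed more between the animals than Utrn-205 in both tables. Only 2 bases of Utrn-201 are held by no other Utrn transcript, against 611 of Utrn-205. The split between them is therefore largely an allocation of shared reads and does not show which form differed.

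The 4 transcripts that share the first coding exon of Utrn-201 together held 68.2% and 63.3% of the Utrn TPM in animals 1 and 2, and 86.7% and 77.3% in the second table. Utrn-202, whose own first coding exon begins a transcript 48.1 kb further along, was at 1.60 and 1.20 TPM, with lower credibility bounds of 0.749 and 0.615 TPM. The second table listed it at 0 in both animals. Utrn-207 was at 0.74 and 1.41 TPM, and in the second table at 0 and 0.737 TPM. Utrophin is known to use a separate downstream promoter in vessel endothelium, but the tables did not settle whether a downstream first exon was in use here. The short forms Utrn-204 and Utrn-206, which begin inside the gene and share the end of its coding sequence, made up 6.64% and 5.55% of the TPM in the first transcript table and 0.614% and 4.46% in the second.

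**Figure D3:**
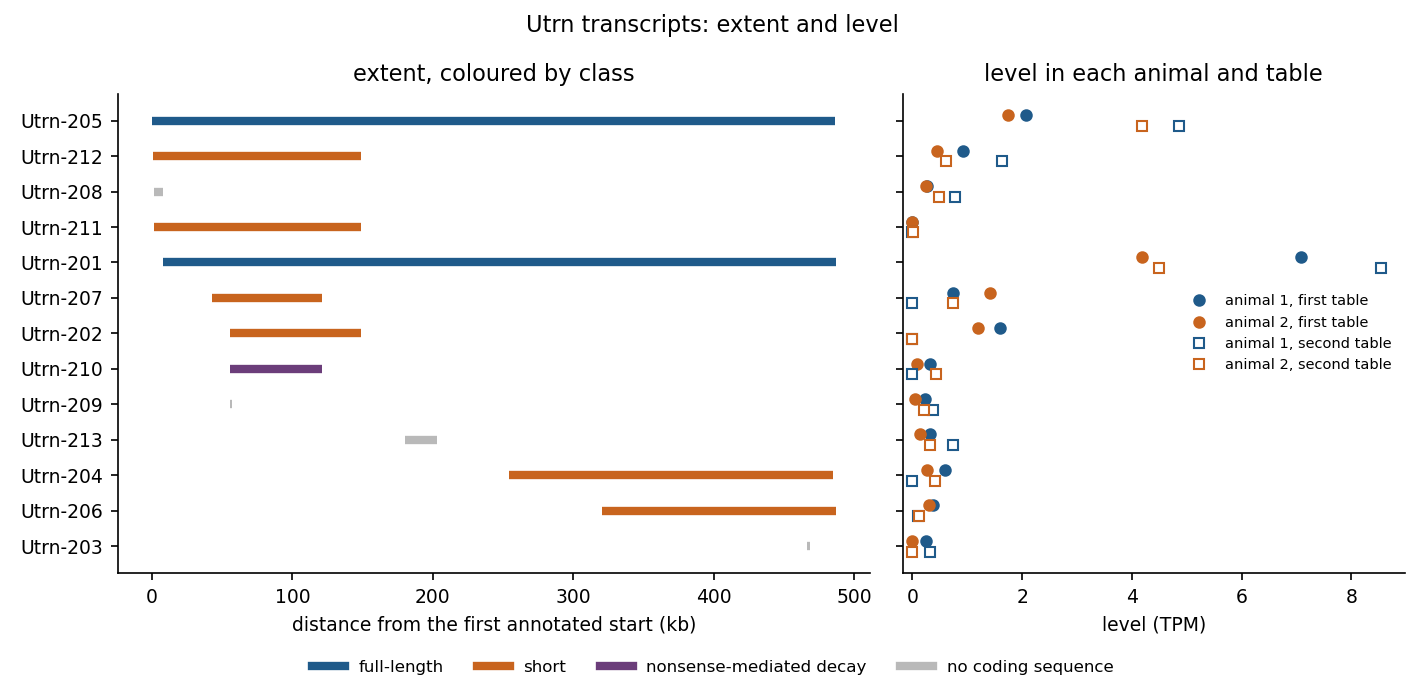
Left, the extent of each annotated Utrn transcript as distance in kb from the first annotated start, coloured by class; right, its TPM per animal and transcript table. Utrn-201 and Utrn-205 carry most of the level in both tables, and Utrn-201 is estimated higher in animal 1 (7.08 and 8.55 TPM) than in animal 2 (4.19 and 4.49 TPM).

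Dystroglycan stood 2.01-fold above dystrophin, with a log2 ratio of 1.01 ± 0.05 (SD, n = 2). Dag1 lies on chromosome 9 (108204634 to 108263958, minus strand). Its 4 complete coding transcripts carry the same 893 residues and differ only outside the coding sequence, and together they held 99.1 ± 0.15% of the Dag1 reads and 88.7 ± 1.68% of the TPM. The form of 5662 nt led, at 46.3 and 51.6 TPM, with that of 4364 nt at 14.0 and 14.3 TPM and that of 4415 nt at 7.48 and 7.98 TPM. The second table moved the smaller forms. It gave the form of 4364 nt 4.00e-07 and 2.94e-06 TPM, put that of 4415 nt at 36.9 and 37.8 TPM, and gave an incomplete model of 509 nt with no base of its own 7.06 and 31.9 TPM. That fragment differed between the animals by more than the summed Dag1 level of the second table did.

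The sarcoglycans of the muscle subcomplex were not at equal levels. Alpha-sarcoglycan exceeded beta-sarcoglycan by 2.85-fold and 2.82-fold in the respective animals, and delta-sarcoglycan by 3.37-fold and 3.22-fold (log2 ratio 1.72 ± 0.05, SD, n = 2). Both ratios exceeded the spread. In the second table they were smaller, at a mean of 2.57-fold over Sgcb and 2.51-fold over Sgcd, and exceeded it there too. Sgce, which replaces alpha-sarcoglycan in smooth muscle and brain, was at 5.41 and 3.92 TPM, 19.3-fold under Sgca. Sgcz had no counts in either animal in the gene table, and was at 0.188 and 0.291 TPM in the second.

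Sgca lies on chromosome 11 (94962791 to 94976327, minus strand). Sgca-202 held 41.9 and 42.0 TPM and Sgca-201, with the same 387 residues, 22.2 and 19.9 TPM. The incomplete model Sgca-204, of 351 nt, held 17.3 and 21.6 TPM in the first transcript table. The second table put 99.0 and 95.6 TPM on Sgca-202 and 0 on both others. Sgcb (chromosome 5, 73632749 to 73647790, minus strand) was read at 97.2 ± 1.88% of its TPM from Sgcb-201, which encodes all 320 residues. Sgcd (chromosome 11, 46896253 to 47988969, minus strand) was read at 97.6 ± 0.62% from Sgcd-201, and its shorter coding form Sgcd-202 had 0 TPM in the first transcript table and 0.0375 and 0 TPM in the second. Sgca, Sgcb and Sgcd thus each gave the same leading form in both tables, as did Dmd, Utrn, Dag1 and Dtna.

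Sarcospan, the small membrane protein that binds the sarcoglycans, was 4.73-fold under Sgca per TPM (log2 ratio of Sspn over Sgca -2.24 ± 0.10, SD, n = 2). Sspn lies on chromosome 6 (145931641 to 145965223, plus strand). The tables gave opposite forms. The first transcript table put 18.1 and 19.8 TPM on Sspn-201, which encodes 216 residues, and 0 on Sspn-203, with upper credibility bounds of 0.771 and 0.585 TPM. The second put 24.7 and 19.5 TPM on Sspn-203, which encodes 140 residues, and 2.04 and 9.41 TPM on Sspn-201. Both have bases of their own, 250 in Sspn-201 and 234 in Sspn-203, and they begin 2.48 kb apart. The summed level of the gene, 18.1 and 20.0 TPM against 26.8 and 28.9 TPM, moved no more than that of most genes.

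Dystrobrevin, the cytoplasmic relative of dystrophin, had several complete coding forms of different length in the first transcript table, led in TPM by the shortest. Dtna lies on chromosome 18 (23415135 to 23659715, plus strand). Its 4 main forms start their coding sequence at the same base and end at different places. Dtna-201, with 371 residues, was at 16.6 and 17.9 TPM, Dtna-206, with 567, at 6.44 and 6.19 TPM, Dtna-203, with 746, at 5.76 and 5.39 TPM, and Dtna-202, with 682, at 4.85 and 5.70 TPM. The shortest form of dystrobrevin is known to lack the part that binds syntrophin and dystrophin. The second table kept Dtna-201 in front, at 21.9 and 20.8 TPM, and gave the others 7.21 to 9.06 TPM.

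By TPM the full-length forms of Dtna made up 29.4 ± 0.38% and by reads 48.7 ± 0.62%. Full-length means here a coding sequence of at least 80% of the longest of the gene and short means under 50%. Dtna-201, at 49.7%, lies just under that limit. Dtna exceeded its paralogue Dtnb 41.0-fold (log2 ratio 5.36 ± 0.21, SD, n = 2), at 0.87 and 0.74 TPM for Dtnb. In the second table it was 20.3-fold (log2 ratio 4.34 ± 0.26), at 2.60 and 2.04 TPM for Dtnb. With a pseudocount of 1 in place of 0.1 the log2 ratio was 4.39.

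Over the 8 genes, the full-length share of TPM was 61.2 ± 0.33% for Dmd, 60.4 ± 2.18% for Utrn, 88.7 ± 1.68% for Dag1, 69.5 ± 1.64% for Sgca, 97.2 ± 1.88% for Sgcb, 97.6 ± 0.62% for Sgcd, 99.4 ± 0.88% for Sspn and 29.4 ± 0.38% for Dtna. In the first transcript table, complete short coding forms made up most of the rest in Dtna. In Dmd it was transcripts with no coding sequence, and in Dag1, Sgca and most of Utrn it was incomplete coding models. With the 11 incomplete models left out of the gene total, an alternative added after seeing the data, the share was 82.0% for Utrn, 97.9% for Dag1 and 100% for Sgca. In the second table the share was 57.7 ± 0.77% for Dmd, 74.7 ± 3.73% for Utrn, 77.8 ± 5.13% for Dag1, 90.5 ± 2.12% for Sgca, 98.5 ± 0.0088% for Sgcb, 97.7 ± 1.02% for Sgcd, 31.1 ± 1.38% for Dtna and 20.1 ± 17.6% for Sspn. Sspn was the gene whose call turned with the table.

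**Figure D4:**
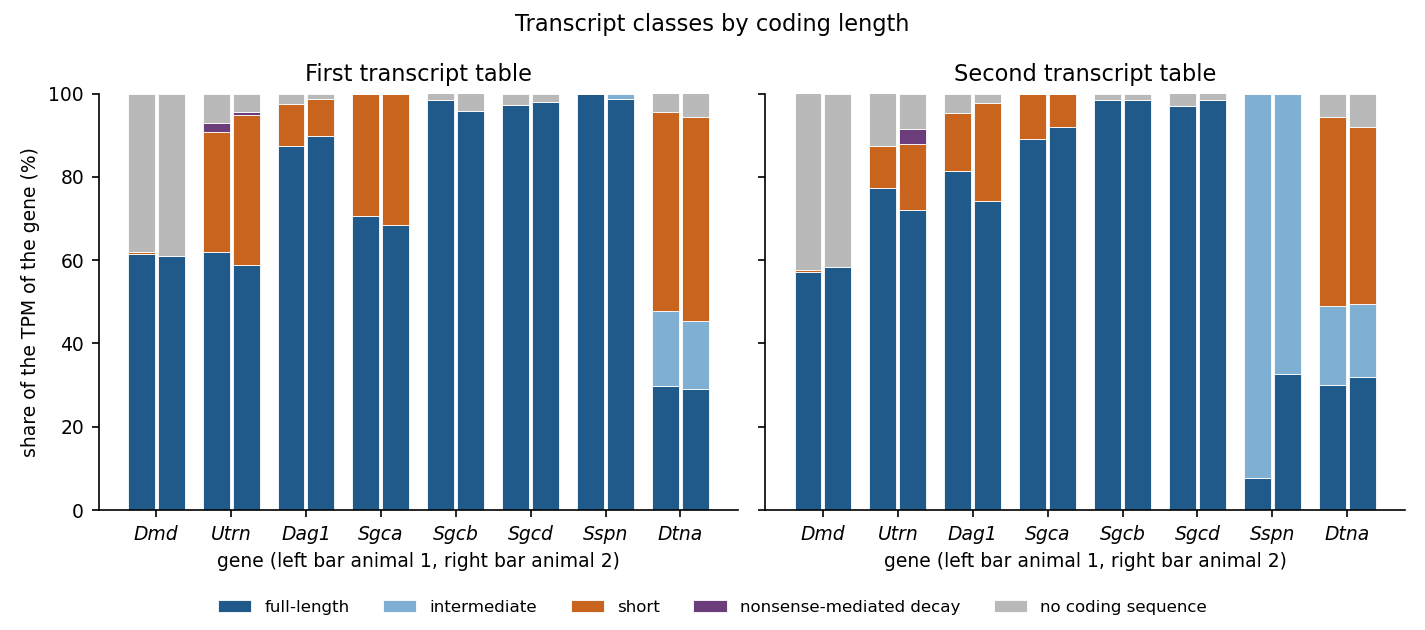
Share of each gene's TPM by transcript class, in percent, in the first (left) and second (right) transcript table, with the left bar of each pair for animal 1 and the right bar for animal 2. Sgcb and Sgcd are almost wholly full-length in both tables, Dtna divides among long, intermediate and short forms, and Sspn changes from 99.4% to 20.1% full-length between the tables.

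Between the animals, 0 of the 8 genes differed 2-fold or more, against 2.97% of the 10872 genes whose count averaged at least 100. With TMM scaling none reached 1.5-fold either, against 8.04%, but with library size alone Utrn passed that limit, at a log2 ratio of -0.62. Log2 ratios of counts, animal 2 over animal 1 and scaled with TMM, lay between 0.07 and 0.26 for 7 genes. Sspn had 0.26 (exact binomial 95% interval of counting error 0.19 to 0.33) and Dag1 had 0.24 (0.20 to 0.27). Dmd had 0.13 (0.10 to 0.16). Sgca had 0.07 (0.01 to 0.13) and Sgcb 0.09 (0.03 to 0.15), and these 2 turned to -0.04 and -0.02 when scaled by library size alone. These intervals leave out the spread between animals and that between libraries of the same animal, which a single ratio per gene cannot separate.

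Utrn alone had the other sign, at -0.51 (-0.58 to -0.45), or 1.43-fold higher in animal 1, from 4616 and 3181 counts. It was -0.31 under spike-in scaling and -0.62 under library size alone, and 10.2% of the 10872 genes lay as far from 0 or further. Of the 13 Utrn transcripts, 11 were lower in animal 2 and 1 was higher by TPM in the first transcript table. Over all 58 transcripts of the 8 genes, 28 were lower and 24 higher by the same measure. The second table placed Utrn-204, Utrn-206, Utrn-207, Utrn-210 and Utrn-211 higher in animal 2. It listed Utrn-202 at 0 in both animals and the other Utrn transcripts lower in animal 2. Transcripts of a gene share reads, so they are not separate observations. Utrophin is known outside the fibre, in endothelium, smooth muscle and nerve sheath, and at the neuromuscular junction. Of the marker genes above the same count, 7 of 8 for pericytes and smooth muscle were higher in animal 1 (median log2 ratio -0.77), as were 9 of 9 for Schwann cells (-2.91). The median over all 10872 genes was 0.02. The endothelial genes were divided, with 4 of 8 higher in animal 1 (-0.05), and so were the 9 junction genes, with 4 higher in animal 1 (0.01). Their part in the Utrn value was not tested.

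**Figure D5:**
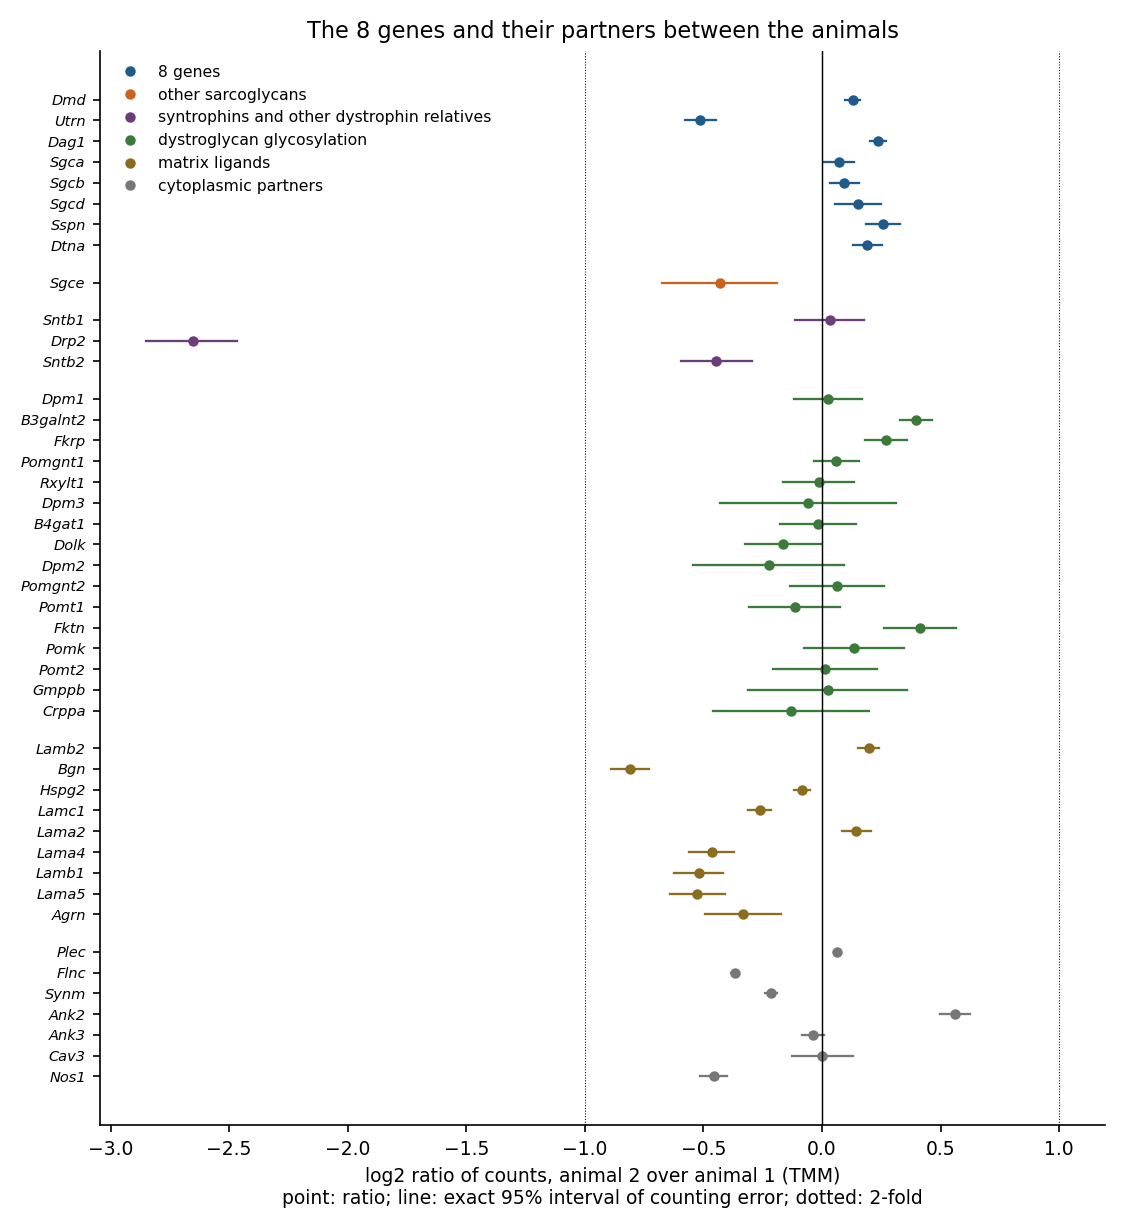
Log2 ratio of counts, animal 2 over animal 1 with TMM scaling, for the 8 genes and for those partners reported here whose count averaged at least 100; points are ratios, lines the exact 95% intervals of counting error, and dotted lines mark 2-fold. Of the 8 genes Utrn alone lies left of 0, at -0.51, and Drp2 is the only gene beyond 2-fold, at -2.65.

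Of 48 partner genes in 5 lists, 39 reached 1 TPM in each animal, with a median of 7.81 TPM over all 48. An average count of at least 100 was also reached by 39, and 1 of these differed 2-fold between the animals, which is 2.56% against 2.97% of all genes. That gene was Drp2, the dystrophin relative of myelinating Schwann cells, where it binds dystroglycan and periaxin. Its level was 7.37 and 1.23 TPM, with 1660 and 259 counts and a log2 ratio of -2.65 (-2.85 to -2.47). The gene of periaxin, Prx, was at 10.8 and 1.12 TPM. Drp2 thus stood apart in the direction of the Schwann cell genes, and their part in its value was not tested.

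Among the syntrophins and other relatives of dystrophin, Sntb1 was at 4.58 and 4.23 TPM. Of the 8 genes in that list 4 reached 1 TPM, and Sntg1 and Dytn had no counts in the gene table.

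The enzymes that build the laminin-binding sugar of dystroglycan were present, with 17 of 18 genes past 1 TPM in each animal and a median of 6.95 TPM. Dpm1, which makes the mannose donor, was at 33.3 and 29.2 TPM, and B3galnt2, a transferase of the core sugar, at 26.5 and 31.7 TPM. Between the animals 0 of the 17 with enough counts were 2-fold apart, and their median log2 ratio was 0.02. Large2 was at 0.11 and 0.05 TPM.

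Among matrix ligands, 9 of 10 genes were at 1 TPM or more. Lamb2, the beta chain of synaptic and adult laminins, was at 57.5 and 61.2 TPM in the gene table, and Bgn, the proteoglycan biglycan that binds dystroglycan and sarcoglycans, at 47.0 and 25.3 TPM. Lama2, which carries the laminin alpha chain of the fibre's own basement membrane, was at 21.1 and 20.1 TPM, and Lama1 at 0.04 and 0.06 TPM; these were named after their values were seen. Animal 1 was the higher for 7 of the 9 genes with enough counts (median log2 ratio -0.33), while 0 were 2-fold apart. The median over all genes with enough counts was 0.02. Fibroblast markers had 5 of 7 genes higher in animal 1 (median -0.41, summed level 1032 and 727 TPM). The other 2, Col1a1 (0.16) and Dcn (0.13), were higher in animal 2. Medians were lower still for markers of pericytes and smooth muscle (-0.77), Schwann cells (-2.91) and adipocytes (-3.88), while endothelial markers were divided (-0.05). The part of these cells in the matrix values was not tested.

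On the cytoplasmic side, 7 of 9 partners were at 1 TPM or more. The cytolinker plectin, Plec, which binds dystrophin and desmin filaments, was highest, at 307 and 294 TPM, and Flnc, the muscle filamin that binds sarcoglycans, was at 217 and 154 TPM. Both exceeded every one of the 8 genes in both animals. The keratins Krt8 and Krt19 were at 0.2 TPM or less. With 2 libraries each gene has a single ratio between animals, so no gene was singled out for a pattern like that of one of the 8.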

How the data were processed

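Per the file headers, the deposited tables by gene and, in the alignment-based version, by transcript give expected counts and TPM, a posterior SD of each count and credibility bounds of TPM. The authors deposited, beside these, the percent of a gene's TPM held by every transcript. TPM has a fixed total, so 1 abundant RNA lowers the others. Another deposited transcript table, called the second here, gives estimated counts and TPM, per its file header. The authors' file lists name mm10 and GENCODE M21, a transcriptome alignment behind the first tables and reads behind the second. The quantification software and strand setting were not given in the sources used here. Effective lengths were 99 nt under transcript length in the first transcript table, and for Dmd-203 338.2 and 344.2 nt under it in the second. CAST reads were counted on a B6 genome and may be lost, and total RNA also holds unspliced RNA. The 26248 rows with no gene name (3 and 5 counts, 6.63e-06% and 1.04e-05%) and the spike-ins were left out of library sizes.

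Identifiers, coding lengths and coordinates were matched to GENCODE M21. The posterior SD was 0 for the count of all 8 genes, and exons of 2 of them overlap an antisense gene: Gm47898 shares 90 bases with Dtna and had 96 and 140 counts, and Sspnos shares 69 bases with Sspn and had 0. With 1 group of 2 libraries no test and no p-value were possible. Values are per animal or means ± SD. Ratios between genes are log2 of TPM plus 0.1. Ratios between animals are log2 of expected counts, rounded, with edgeR TMM factors and a prior count of 0.5, and were checked on simulated counts. Intervals and the limit of 3 counts cover counting error only. Transcripts of nonsense-mediated decay or with no coding sequence formed classes of their own.

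The 8 genes, the partner and marker lists and the settings were chosen with earlier results of these data known. The rule for names took the 8 genes, their leading transcripts and those with a mean share of 10% or more in either table, all coding Dmd transcripts, the 2 partners of highest TPM per list and any partner 2-fold apart with a mean count of 100 or more. Other names serve as background to these or were chosen after their values were seen. Alternatives were DESeq2 size factors, library size, spike-ins, other prior counts, pseudocounts, filters and folds, the second table, other class rules and each library left out. The work used edgeR 4.0.16 and DESeq2 1.42.0 in R 4.3.3, and pandas 2.3.3, numpy 2.4.6, matplotlib 3.10.9 and scipy 1.17.1 in Python 3.11.15. Some genes of the lists are counted in them but not reported here.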

Additional observations from a re-analysis of the deposited data

How the results depend on the processing

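The count of 0 genes apart at 2-fold was also 0 under DESeq2 size factors, library size, spike-in scaling, a prior count of 5, no filter, the second transcript table and a 1.5-fold limit. In combinations added after seeing the data, the count at 1.5-fold was 1 with library size alone (Utrn, a log2 of -0.62) and 0 with DESeq2 size factors, spike-ins or the second table. The median level of the 8 genes, 34.4 TPM, was 45.7 TPM in the second table and 33.7 to 35.1 TPM with a library left out. Of 10 ratios between genes, 9 exceeded their spread in the gene table, with a pseudocount of 1 and in the second table, but not the same 9: Sgcb over Sgcd changed sign there, from a log2 of 0.22 to a log2 of -0.0315, and Dmd over Dtna passed at 0.30. The median full-length share over the 8 genes, 79.1% by TPM, was 76.2% in the second table, 92.6% by expected counts, 61.2% when classed by transcript length, 94.9% over protein-coding transcripts, 97.4% without incomplete models and 79.1% at a 90% limit or with either library left out. Over all genes the median ratio between animals, a log2 of 0.02, became 0.22 with spike-ins and -0.09 with library size. No paired analysis was possible because the series has 1 group.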
